A study of Bos taurus and Cervus elaphus with 24 samples.

Results

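Blood transcripts of red deer (Cervus elaphus) were compared between peak lactation and the dry period, the phase in which no milk is produced. The comparison rests on 8 of the 24 arrays of the study, chosen by their titles: 4 arrays of deer in the dry period and 4 of deer in peak lactation. The labels name no treatment, genotype or age, and the study's design text states that each of the 4 deer was bled in both states. The remaining 16 arrays hold 4 Holstein-Friesian and 4 Polish Red cattle, also bled in both states. All groups share the same handling: blood went into RNA-preserving tubes, total RNA was extracted, and the source is labelled peripheral blood nuclear cells. On every array the RNA of 1 animal carried the dye Cy5, and a common reference pooled from 20 cattle outside the groups carried Cy3. The array is a bovine design with probes of 60 bases, so deer RNA was read through cattle sequence. A probe that binds deer RNA poorly has a low log2 ratio of Cy5 to Cy3 in both states, and for this reason only the difference between states of the same probe was compared.

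Blood RNA comes from many cell types at once: lymphocytes, monocytes, neutrophils, platelets and young red cells that still hold globin messages. Haemoglobin is built from alpha-type and beta-type globin chains, and in ruminants the beta-type genes lie together in a cluster with embryonic, fetal and adult members. In resting blood few cells divide, and the messages of mitosis and DNA replication come from the small dividing fraction, such as activated lymphocytes. Peak lactation is the time of greatest milk output, when mammals mobilise fat and send fatty acids to liver and muscle for oxidation.

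The labelled source was checked against marker genes fixed for each cell type. All 5 of 5 leukocyte markers were well above background on all 8 deer arrays, as were 5 of 5 each for T cells, B cells, monocytes and neutrophils. So were 4 of 5 for NK and cytotoxic cells, 4 of 5 for red cells and the 4 platelet markers with a probe. Red cell and platelet messages were thus read along with those of nucleated cells. Of the 4 mammary epithelium markers with a probe, 2 were above background on all 8 arrays. The median Cy5 intensity was between 122 and 146, between 31678 and 34695 probes were above background, and log2 ratios of any pair of deer arrays correlated at 0.881 to 0.973 across probes. A pair of lactation arrays stood apart. The standard deviation of log2 ratios was 0.593 on the array of animal 2 in lactation and 0.733 on that of animal 4, against 0.880 to 0.930 on the other 6. Their slopes on the mean of the dry arrays were 0.624 and 0.798, against 0.968 to 1.04 on the others, so high and low log2 ratios lay closer to 0 on them. For named genes whose change without both arrays differed by more than 1.5 times, the value without them is also given. The 3 slides also followed the states in part: 1 held dry arrays of animals 1, 2 and 4, another the lactation arrays of animals 2 and 3, and only the last held both states (dry animal 3, lactation animals 1 and 4).

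Of 43653 probes, 33389 were tested, and the brightest tested probe stood for each of 13827 named genes. Only 2 probes passed an adjusted p of 0.05 (limma with Benjamini-Hochberg adjustment), which is 0.00599% of those tested, and both fell in lactation. No probe rose past that threshold, and no named gene was called in either direction. When the Polish Red dry array of replicate 1 was left out of the fit, 3 probes passed, and the higher one was RFC5, of the DNA clamp loader (change 0.58, adjusted p 0.0236). Without adjustment, 3020 probes had a p under 0.05, of which 1834 (5.49%) were higher and 1186 (3.55%) lower in lactation. Among genes the shares at the same unadjusted threshold were 5.99% higher and 3.16% lower, and the median change over all genes was 0.02 on the log2 scale. By the study's own kind of test, an analysis of variance over the 6 groups with a Tukey comparison at unadjusted p, 366 probes passed, 173 higher (0.518%) and 193 lower (0.578%), and 0 passed when both p-values were adjusted. The 2 calls rested on few arrays: leaving out the lactation array of animal 2 or of animal 4 left 0 calls, leaving out a dry array of animal 1 or 4 left 1, and leaving out the lactation array of animal 3 gave 58, of which 25 were higher and 33 lower. The 2 probes that fell are shown with the beta-globin probes they are read against, since the finding lies in these sequences.

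A_73_P075736 lies on chromosome 15 at chr15:49039613-49039672, plus strand, of the cattle build UMD 3.1, between the probes of HBB (16577 bases before it) and HBE2 (9735 bases after it). The deposited annotation gives it a transcript identifier, ENSBTAT00000053945, and no gene name. Aligned without gaps to a probe of HBG, a beta-type globin gene, at chr15:49073818-49073877, plus strand, it shared 42 of 57 aligned bases (73.7%), while the other named probes of the cluster shared 18 to 21. Capitals mark the bases shared by both.
A_73_P075736: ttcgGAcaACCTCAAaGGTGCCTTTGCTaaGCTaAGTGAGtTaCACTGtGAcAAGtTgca
HBG probe A_73_P441566: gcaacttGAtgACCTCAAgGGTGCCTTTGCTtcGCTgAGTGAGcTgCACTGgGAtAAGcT
The probe of HBB, the adult beta-globin gene, lies at chr15:49023036-49023095, plus strand.
HBB probe: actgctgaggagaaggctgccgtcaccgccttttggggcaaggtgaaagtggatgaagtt
The other probe that fell, A_73_107213, lies at chr7:45230228-45230287, minus strand, 8003 bases from the nearest named probe, that of SBNO2. The deposited annotation links it to TC436754, an assembled transcript without a gene name, and does not say which part of a gene it reads.
A_73_107213: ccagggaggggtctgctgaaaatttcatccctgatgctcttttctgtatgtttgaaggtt

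A_73_P075736 fell about 10.6-fold. Its log2 ratios in the dry period were 6.36, 4.06, 3.62 and 4.64 in animals 1 to 4 (4.67 ± 1.20, SD, n = 4). In lactation they were 2.77, 0.73, 1.38 and 0.18 (1.27 ± 1.12, SD, n = 4). Every lactation array lay below every dry array, and animal 1 was the highest in both states. The change was -3.40 ± 0.45 (SE), with an adjusted p of 0.00707 by limma over all 24 arrays. The Cy3 channel, which holds the cattle reference, changed by -0.54 at this probe, and Cy5 changed by -3.94, so the change in Cy5 was larger than that of the ratio. The change was -2.59 without the lactation arrays of animals 2 and 4 and -2.14 within the slide that held both states. Both called probes lost their call when the fit held only the 8 deer arrays (adjusted p 0.663 for each by limma, from unadjusted p-values of 0.000762 and 0.000808). Neither was called without animals 2 and 4, after scaling of arrays or with the slide as a fixed factor, where 0 probes passed. A_73_P075736 also lost its call with Agilent's processed log ratio (change -2.84, adjusted p 0.257), and changed by -1.70 after scaling.

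A_73_107213 fell by 0.78 on the log2 scale, with a standard error of 0.12 and an adjusted p of 0.0475 by limma. Dry values were -0.50, -0.997, -0.90 and -0.39, and lactation values were -1.54, -1.31, -1.34 and -1.70. Again the groups did not overlap, and animals 1 and 4 were the highest when dry and the lowest in lactation.

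Other globin and red cell messages were lower in lactation on average without passing the test. HBB had dry log2 ratios of 0.57, -2.37, -0.26 and -1.81, and lactation values of -3.38, -3.63, -4.49 and -4.47. All lactation arrays were below all dry arrays. The dry arrays were far apart (SD 1.36, against 1.20 at A_73_P075736), animals 1 and 3 being high and 2 and 4 low. The change was -3.02 ± 0.98 (SE), with an adjusted p of 0.468 by limma. The HBG probe shown above ran beside HBB on all arrays: 0.92, -2.38, -0.29 and -1.67 when dry, and -3.40, -3.95, -4.86 and -4.73 in lactation, a change of -3.38 ± 1.07 (SE; adjusted p 0.468). The other HBG probes changed by -2.29, with overlapping groups, and by 0.06. HBA, the alpha-globin gene, changed by -1.59 (adjusted p 0.631), and its dry values of 0.18, -2.31, -1.04 and -1.70 kept the order of animals seen at HBB. Its lactation values were all close together, between -3.03 and -2.37. ALAS2, the first enzyme of haem synthesis in red cells, changed by -1.16 (adjusted p 0.611), with groups that overlapped in animal 2. AHSP, the chaperone of alpha-globin, changed by -0.04, and by -0.19 without the lactation arrays of animals 2 and 4. The embryonic-type gene HBE4 changed by 0.43 (adjusted p 0.898), by -0.16 without that pair and by -0.56 after scaling of arrays.

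Over the whole erythroid list, 16 of 22 tested genes were lower, with a median of -0.10. Only 1 was lower at an unadjusted p under 0.05 (4.55%, against 3.16% of all genes), and 2 (9.09%) had every lactation array below every dry array, against 1.87% of all genes. The mean log2 ratio of the 4 tested erythroid markers ran from -1.84 to 0.09 in dry arrays and from -2.71 to -1.91 in lactation arrays. In blood RNA, fewer cells of a type and less RNA per cell cannot be told apart. The share of young red cells was not measured, and its part in the change of A_73_P075736 was not tested.

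**Figure D1:**
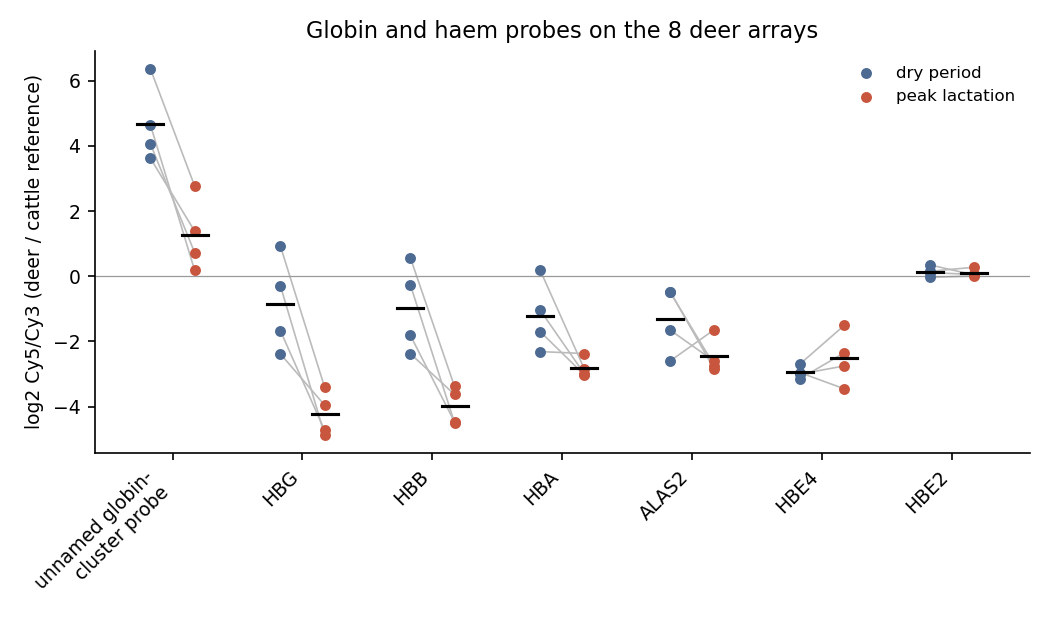
Log2 ratio of Cy5 to Cy3 (vertical axis) of beta-globin cluster and red cell probes on each of the 8 deer arrays, with bars at group means and lines joining each animal. The called probe A_73_P075736, at the left, lies between 3.62 and 6.36 in dry arrays and between 0.18 and 2.77 in lactation arrays, and the dry values of HBB run from -2.37 to 0.57.

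The genes nearest to a call in the upward direction were led by genes of cell division, though none passed. By the rule used here, the 8 genes of lowest p that were higher in 4 of 4 animals were TPX2, CDYL2, KNSTRN, MCM4, CDCA3, ELP5, RMI2 and PLK1. TPX2, which builds the mitotic spindle and activates Aurora kinase A, had dry log2 ratios of 0.11, 0.18, 0.13 and -0.06 and lactation ratios of 0.55, 0.72, 0.60 and 0.71. The groups were tight and well apart. The change was 0.55 ± 0.09 (SE), a 1.47-fold difference, with an adjusted p of 0.0900 by limma, the lowest of any named gene. All 4 of its tested probes were higher. KNSTRN, a kinetochore adaptor, went from -1.32, -1.25, -0.99 and -1.44 to -0.66, -0.32, -0.90 and -0.40. Animal 3 moved least, and the change was 0.68 ± 0.13 (SE; adjusted p 0.194). MCM4, a subunit of the replicative helicase, went from -1.06, -0.77, -0.51 and -0.97 to -0.41, 0.04, -0.28 and 0.09, a change of 0.69 ± 0.14 (SE; adjusted p 0.194). All 4 of its tested probes were higher, and the lactation arrays of animals 2 and 4 were the highest. CDCA3, which triggers mitotic entry, went from -0.14, -0.06, 0.12 and -0.35 to 0.68, 0.97, 0.41 and 0.95, a change of 0.86 ± 0.17 (SE; adjusted p 0.207).

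CDYL2, a chromodomain protein, was -0.38, -0.38, -0.28 and -0.58 when dry and -0.08, -0.05, 0.02 and 0.04 in lactation (change 0.39 ± 0.07, SE; adjusted p 0.156). The median over the 2 tested probes of CDYL2 was 0.21. ELP5, a subunit of the Elongator complex that modifies transfer RNA, was -1.51, -1.48, -1.33 and -1.76 when dry and -1.23, -0.78, -1.32 and -0.87 in lactation (change 0.47 ± 0.10, SE; adjusted p 0.330). In ELP5 animal 3 hardly differed between states. Its change was 0.25 without the lactation arrays of animals 2 and 4, and turned to -0.11 when arrays were scaled to one spread. RMI2, of the complex that resolves DNA crossovers, changed by 0.70 (adjusted p 0.371), or 0.45 without that pair. PLK1, a kinase of mitotic entry and exit, changed by 0.53 (adjusted p 0.437), by 0.31 without the pair and by -0.03 after scaling of arrays.

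Some probes of these genes cross an exon junction, as their genomic span is longer than their 60 bases. They are printed because spliced message, not genomic DNA, gives their full match.
TPX2, chr13:61844816-61851567, plus strand: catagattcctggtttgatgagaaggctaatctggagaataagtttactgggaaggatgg
MCM4, chr14:21191388-21192104, plus strand: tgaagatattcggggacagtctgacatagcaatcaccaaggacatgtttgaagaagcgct
UBE2C, chr13:75309411-75309967, plus strand: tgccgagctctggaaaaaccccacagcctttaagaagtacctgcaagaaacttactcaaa
The TPX2 probe changed by 0.49, the MCM4 probe by 0.48 and the UBE2C probe by 0.50 (each adjusted p 0.454). UBE2C encodes the ubiquitin enzyme that works with the anaphase-promoting complex, and its lactation values of 0.27, 0.30, 0.09 and 0.36 all lay above the dry values of -0.22, -0.21, -0.17 and -0.37.

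Across the cell cycle and mitosis list, 28 of 32 tested genes were higher in lactation, with a median of 0.31 against 0.02 over all genes. At an unadjusted p under 0.05, 18 genes (56.2%) were higher, against 5.99% of all genes, and 0 were lower. In 15 genes (46.9%) every lactation array lay above every dry array, against 2.63% of all genes. The mean over the list ran from -0.16 to 0.03 in dry arrays and from 0.20 to 0.33 in lactation arrays. TYMS, which makes thymidylate for DNA, changed by 0.80 ± 0.21 (SE), and AURKA, the kinase that TPX2 activates, by 0.40 ± 0.12 (SE; adjusted p 0.454 for both). The median over the 2 tested probes of AURKA was 0.25. Without the lactation arrays of animals 2 and 4, TYMS changed by 0.47. The list's median was then 0.38, with 16 genes higher at an unadjusted p under 0.05, in a fit where 3.46% of all genes were. The list was drawn up with earlier results of the same arrays known, so its counts are a description.

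The DNA replication list went the same way, with 29 of 33 genes higher and a median of 0.23. In it 10 genes (30.3%, against 5.99% of all genes) were higher at an unadjusted p under 0.05, and 1 (3.03%, against 3.16%) was lower. PCNA, the sliding clamp of DNA polymerase, changed by 0.59 and RFC5, of the clamp loader, by 0.58. All 3 tested probes of RFC5 were higher, but their median change was 0.11. At its brightest probe all 4 lactation arrays (-0.42, -0.09, -0.26 and -0.08) were above the dry arrays (-0.85, -0.81, -0.74 and -0.77). The member that was lower was ORC5, of the origin recognition complex, with dry values of 1.35, 0.91, 1.58 and 1.88 and lactation values of 1.20, 0.58, 0.90 and 0.51. Its change was -0.63 ± 0.16 (SE; adjusted p 0.454), or -0.38 without the lactation arrays of animals 2 and 4, and its probes disagreed, 1 of 3 being higher. The T cell list had a median of 0.04 and the B cell list of 0.05, with means of -0.33 to -0.14 and -0.35 to -0.09 in dry arrays and of -0.28 to -0.12 and -0.17 to 0.04 in lactation arrays. The share of dividing cells was not measured and its part in these changes was not tested.

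**Figure D2:**
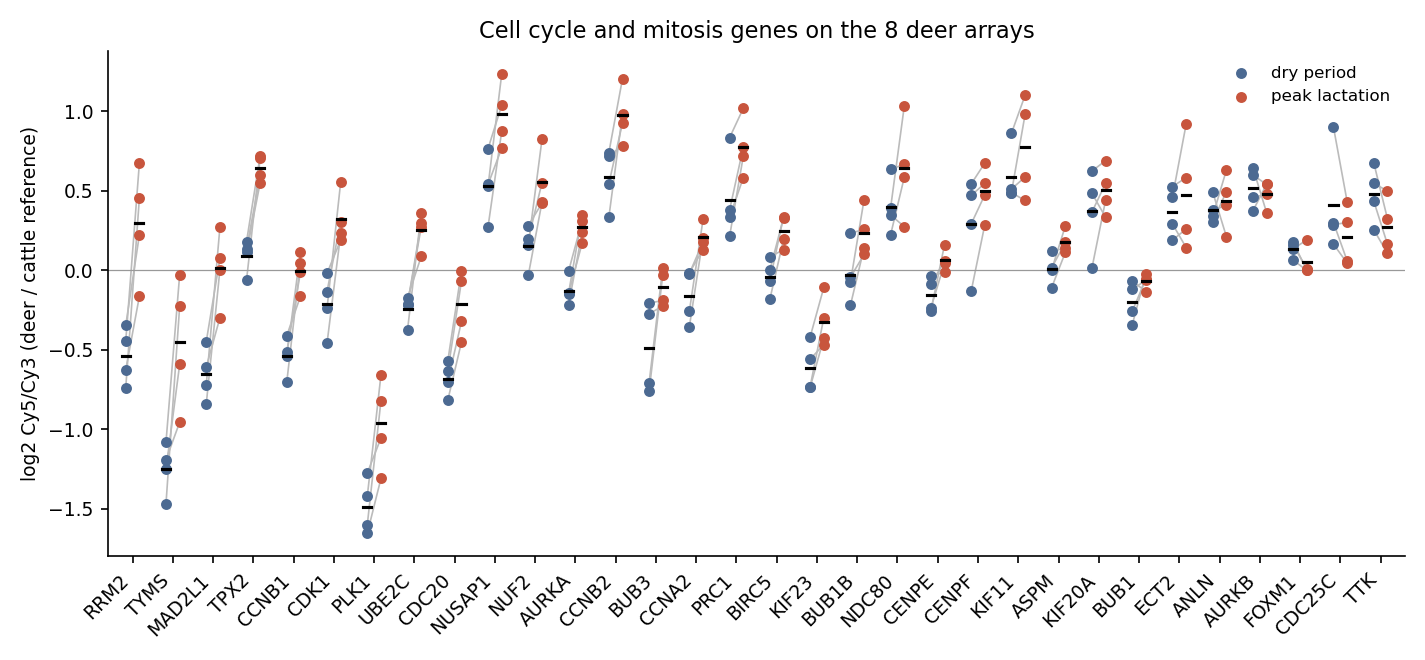
Log2 ratio of Cy5 to Cy3 (vertical axis) of the 32 tested genes of the cell cycle and mitosis list, in order of their change, with 1 point per array, bars at group means and lines joining each animal. The lactation mean lies above the dry mean in 28 genes, and the dry and lactation points of TPX2 do not overlap.

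In the downward direction, the 8 genes of lowest p that were lower in 4 of 4 animals were MLF1, MAMDC4, MPDZ, CNR1, MOS, ASGR1, SBNO1 and ORC5, and none passed. MLF1, named for its fusion in myeloid leukaemia, had dry log2 ratios of 2.35, 1.61, 2.80 and 2.01 and lactation ratios of 1.41, 0.37, 1.72 and 0.63. Each animal was lower by a similar step, but the groups overlapped because the lactation value of animal 3 exceeded the dry value of animal 2. The change was -1.16 ± 0.23 (SE; adjusted p 0.194), and -0.63 without the lactation arrays of animals 2 and 4. MPDZ, a scaffold protein with many PDZ domains, went from 1.03, 0.88, 0.72 and 0.49 to 0.47, 0.17, 0.32 and 0.10 (change -0.51, adjusted p 0.371). MAMDC4, a membrane protein linked to endocytosis, went from 0.81, 0.78, 0.87 and 0.98 to 0.73, 0.27, 0.49 and 0.50 (change -0.36, adjusted p 0.371).

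CNR1, the cannabinoid receptor, went from 0.91, 1.13, 1.17 and 1.25 to 0.79, 0.16, 1.00 and 0.57. Its change of -0.49 (adjusted p 0.437) was -0.22 without the lactation arrays of animals 2 and 4, and 0.15 with Agilent's own processed ratio. The median over the 3 tested probes of CNR1 was -0.16. MOS, a germ cell kinase, went from 0.39, 0.21, 0.25 and 0.34 to -0.01, 0.01, 0.09 and -0.03 (change -0.28). The narrow groups did not overlap, although all 8 values lay near the reference. ASGR1, a lectin of the liver and of monocytes, went from 1.37, 1.31, 1.31 and 1.46 to 0.99, 0.24, 1.25 and 0.47 (change -0.63), the steps being largest in animals 2 and 4. Without the lactation arrays of this pair ASGR1 changed by -0.24. SBNO1, a helicase-like regulator, changed by -0.46. Adjusted p was 0.454 by limma for MOS, ASGR1 and SBNO1. The probes of MPDZ, CNR1, MOS and ASGR1 were dim, with mean log2 intensities over both dyes of 7.27, 7.19, 7.01 and 7.21, against 9.29 at TPX2.

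Genes of protein synthesis were slightly higher as groups. In the cytosolic ribosomal protein list 74 of 78 genes were higher, where 55.1% of all genes were, with a median of 0.17. Of these, 8 genes (10.3%, against 5.99% of all genes) passed an unadjusted p of 0.05, among them RPS2, RPL38, RPL29 and RPLP0 with changes of 0.35, 0.38, 0.24 and 0.28. The change of RPS2 was 0.21 without the lactation arrays of animals 2 and 4 and -0.30 after scaling of arrays. For RPS2, RPL38, RPL29 and RPLP0, Cy5 changed by 0.31, 0.19, 0.08 and 0.13. Cy3, the cattle reference, changed by -0.04, -0.19, -0.16 and -0.15 at the same probes. The list's median was 0.082 without the lactation array of animal 1, 0.093 without the dry array of animal 4, and 0.052 with the slide as a fixed factor. List means overlapped between states (-0.25 to 0.14 dry, 0.01 to 0.33 in lactation), so the shift was within the spread between animals. In the translation initiation list 29 of 35 genes were higher (median 0.14), and in the proteasome list 34 of 39 (median 0.11). PSMD5, a chaperone of proteasome assembly, changed by 0.28 with groups that did not overlap, but its probes disagreed, 1 of 2 being lower. At the PSMD5 probe used, Cy5 changed by 0.10 and Cy3 by -0.18. The mitochondrial respiratory chain list had 73 of 77 genes higher with a median of 0.15, yet 2 genes (2.60%) were higher at an unadjusted p under 0.05, against 5.99% of all genes. Its lowest member, ATP5F1E of the ATP synthase, changed by -0.57 ± 0.20 (SE; adjusted p 0.468), with 1 of its 3 tested probes higher.

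In the unfolded protein response list, 20 of 24 genes were higher with a median of 0.24. PDIA4, which forms disulphide bonds in the endoplasmic reticulum, changed by 0.49, DNAJB11 by 0.38 and SDF2L1 by 0.37, the latter both cofactors of its chaperone BiP. The median over the 3 tested probes of PDIA4 was 0.13. For PDIA4 the lactation values were 0.09, 0.92, 0.15 and 0.64 against dry values of 0.01, -0.19, 0.09 and -0.05, and animals 2 and 4 were the high ones. Without those arrays PDIA4 changed by 0.16 and DNAJB11 by 0.13, and the list's median was 0.07, with 2 genes higher at an unadjusted p under 0.05. JCHAIN, the joining chain of secreted antibodies, had a like pattern, with 1.17, 2.34, 0.61 and 1.79 in lactation against 0.56, 0.24, 0.50 and 0.75 when dry. Its change was 0.97 ± 0.43 (SE; adjusted p 0.529), and 0.38 without animals 2 and 4.

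Fatty acid genes showed no common direction. Of the fatty acid oxidation and PPAR target list, 19 of 36 genes were higher, with a median of 0.01. CPT1A, which gates the entry of long-chain fatty acids into mitochondria, had dry values of -0.03, -0.27, -0.24 and 0.52 and lactation values of -1.26, -0.77, -0.53 and -0.67. All lactation arrays were below the dry arrays, animal 1 most. The change was -0.80 ± 0.24 (SE; adjusted p 0.454), and -0.89 without the lactation arrays of animals 2 and 4. Over the 2 tested probes of CPT1A the median was -0.49. SLC25A20, the carrier that takes acylcarnitines across the inner membrane, went from -0.40, -0.46, -0.20 and -0.16 to -1.08, -0.74, -0.59 and -0.62. These groups did not overlap either (change -0.45 ± 0.15, SE; adjusted p 0.468). CPT2, the enzyme of the step after the carrier, changed by 0.64 (adjusted p 0.519), with 1 of its 2 tested probes lower. It changed by -0.13 without the lactation arrays of animals 2 and 4. ECHS1, of the oxidation cycle itself, changed by 0.44 with all arrays, by 0.15 without that pair and by -0.75 after scaling. Both lie at low log2 ratios, where most probes were higher in lactation.

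In the glycerolipid synthesis list, 14 of 31 genes were higher and 17 lower. MOGAT1, which joins a fatty acid to monoacylglycerol, had the largest difference, from 2.82, 2.24, 2.61 and 3.35 to 2.79, 0.52, 2.46 and 0.38. Animals 2 and 4 carried it, and without their lactation arrays the change of -1.22 (adjusted p 0.454) was -0.13. ACSL5, an acyl-CoA synthetase, changed by -0.50 and GPAT4, which starts glycerolipid assembly, by -0.50 (adjusted p 0.489 and 0.535). ACSL5 changed by 0.01 after scaling of arrays. GPAT4 changed by -0.20 without the dry array of animal 4 and by -0.10 within the slide that held both states. Cholesterol genes were mostly higher, 23 of 26 with a median of 0.16, led by HSD17B7 at 0.49, and the median was -0.03 after scaling. At the HSD17B7 probe Cy5 changed by 0.16 and Cy3, the cattle reference, by -0.33. Of the glycolysis list 13 of 30 genes were higher. PDK1, which slows the entry of pyruvate into the citric acid cycle, changed by 0.72 (adjusted p 0.474), by 0.46 without the lactation array of animal 2, by 0.25 without animals 2 and 4, and by -0.12 after scaling.

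Neutrophil genes were lower on average and varied widely. Of the neutrophil and granule list, 21 of 27 genes were lower with a median of -0.18, 3 of them (11.1%) at an unadjusted p under 0.05 against 3.16% of all genes. S100A9 and S100A8, the subunits of calprotectin, and S100A12, a calgranulin of the same family, changed by -1.01, -0.90 and -0.94. The median over the 2 tested probes of S100A9 was -0.51. S100A9 was -0.41, -0.63, -0.29 and 0.50 when dry and -0.66, -1.34, -0.55 and -2.31 in lactation. The lactation array of animal 4 was the lowest, and without it the changes were -0.64 for S100A9, -0.47 for S100A8 and -0.50 for S100A12. Without the lactation arrays of both animals 2 and 4 they were -0.40, -0.20 and -0.15. CATHL2, an antimicrobial cathelicidin, was 2.41, 2.75, 1.72 and 0.69 when dry and 0.61, 1.37, 0.05 and -0.21 in lactation. Each animal was lower, while the groups overlapped (change -1.44 ± 0.69, SE; adjusted p 0.551). The median over the 3 tested probes of CATHL2 was -0.59. The mean of the 5 neutrophil markers ran from -0.03 to 0.78 in dry arrays and from -1.12 to 0.08 in lactation arrays, all 5 being lower.

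Interferon-stimulated genes were mostly higher, 36 of 42 with a median of 0.15, where 55.1% of all genes were higher, and 4 (9.52%, against 5.99% of all genes) at an unadjusted p under 0.05. USP18, which removes ISG15 and damps interferon signalling, had dry values of -2.97, -3.27, -2.85 and -3.02 and lactation values of -2.61, -1.55, -1.98 and -2.45. The groups did not overlap, and the change was 0.88 ± 0.21 (SE; adjusted p 0.437). IFIT5 changed by 0.48, IFI44L by 0.54 and STING1, the adaptor of cytosolic DNA sensing, by 0.61. Direction here depended on how the spread of arrays was treated: after scaling the values were -0.35 for USP18, -0.03 for IFIT5, -0.43 for IFI44L and -0.23 for STING1. Without the lactation arrays of animals 2 and 4, the change of USP18 was 0.73, that of STING1 0.23, and the list's median 0.31. Leaving out 1 array in turn gave list medians from 0.033, without the lactation array of animal 3, to 0.245. The median was 0.075 without the dry array of animal 2, and STING1 changed by 0.35 without the lactation array of animal 2.

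Of the pattern recognition receptors 19 were higher and 19 lower. NOD2, a sensor of bacterial wall fragments, changed by 0.41, and CLEC7A, the receptor of fungal glucans, by -0.56. Without the lactation array of animal 4 CLEC7A changed by -0.34, without both animals 2 and 4 by -0.0011, and after scaling of arrays by 0.75. At its probe Cy5 changed by -0.28 and Cy3, the cattle reference, by 0.28. In the adhesion list 16 of 33 genes were higher, and PECAM1, of platelets and endothelium, changed by -0.48 without overlap of groups, or by 0.39 after scaling of arrays. ITGAL, the LFA-1 alpha chain, changed by -0.51, or by -0.32 without the lactation array of animal 1. The median over the 3 tested probes of ITGAL was -0.23. The cytokine list had 12 of 34 genes higher. CCL2, a monocyte attractant, changed by -0.92 (adjusted p 0.468), by -0.42 without the lactation arrays of animals 2 and 4, and by 0.42 within the slide that held both states. PDIA3 of the MHC class I loading list changed by 0.58, and 18 of its 19 genes were higher with a median of 0.09. MHC class II (11 of 18 higher), T cell (17 of 28), B cell (11 of 19), NK and cytotoxic (7 of 20), monocyte (8 of 20) and platelet genes (6 of 17) had medians between -0.07 and 0.05. PTX3, an acute phase pentraxin, changed by -1.40 ± 0.59 (SE; adjusted p 0.512), or by -0.41 without the lactation arrays of animals 2 and 4. The median over its 3 tested probes was -0.49.

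Genes of milk and of the lactation hormones had small changes in blood, none past the test. Of the milk protein and mammary list, 7 of 17 genes were higher, with a median of -0.01. BTN1A1, the butyrophilin of the milk fat globule, changed by -0.26 (adjusted p 0.454). In the prolactin, growth hormone and IGF list 20 of 29 genes were lower, with a median of -0.08. IGF1 went from 0.17, 0.08, 0.19 and 0.05 to -0.03, -0.02, -0.03 and -0.05, a change of -0.15 without overlap of groups (adjusted p 0.569). Its probe was dim, with a mean log2 intensity over both dyes of 6.80, against 9.29 at TPX2. IGFBP6, which binds insulin-like growth factors, changed by -0.23, or -0.09 without the lactation arrays of animals 2 and 4. STAT6, the transcription factor of interleukin-4 signalling, changed by -0.33, or -0.19 without the dry array of animal 4. At the STAT6 probe Cy5 changed by -0.04 and Cy3, the cattle reference, by 0.30. Among glucocorticoid response genes 16 of 24 were lower. DDIT4, an inhibitor of MTOR induced by stress hormones, changed by 0.84, being higher in 4 of 4 animals, but by -0.46 within the slide that held both states. The clock gene BHLHE41 changed by 0.74, the parathyroid hormone receptor PTH1R by -0.47 and the metalloreductase STEAP4 by -0.78. At the PTH1R probe the Cy3 signal of the cattle reference itself changed by 0.40, and Cy5 by -0.07. Without the lactation arrays of animals 2 and 4 BHLHE41 changed by 0.21 and PTH1R by -0.24, and after scaling by -0.58 and 0.40.

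**Figure D3:**
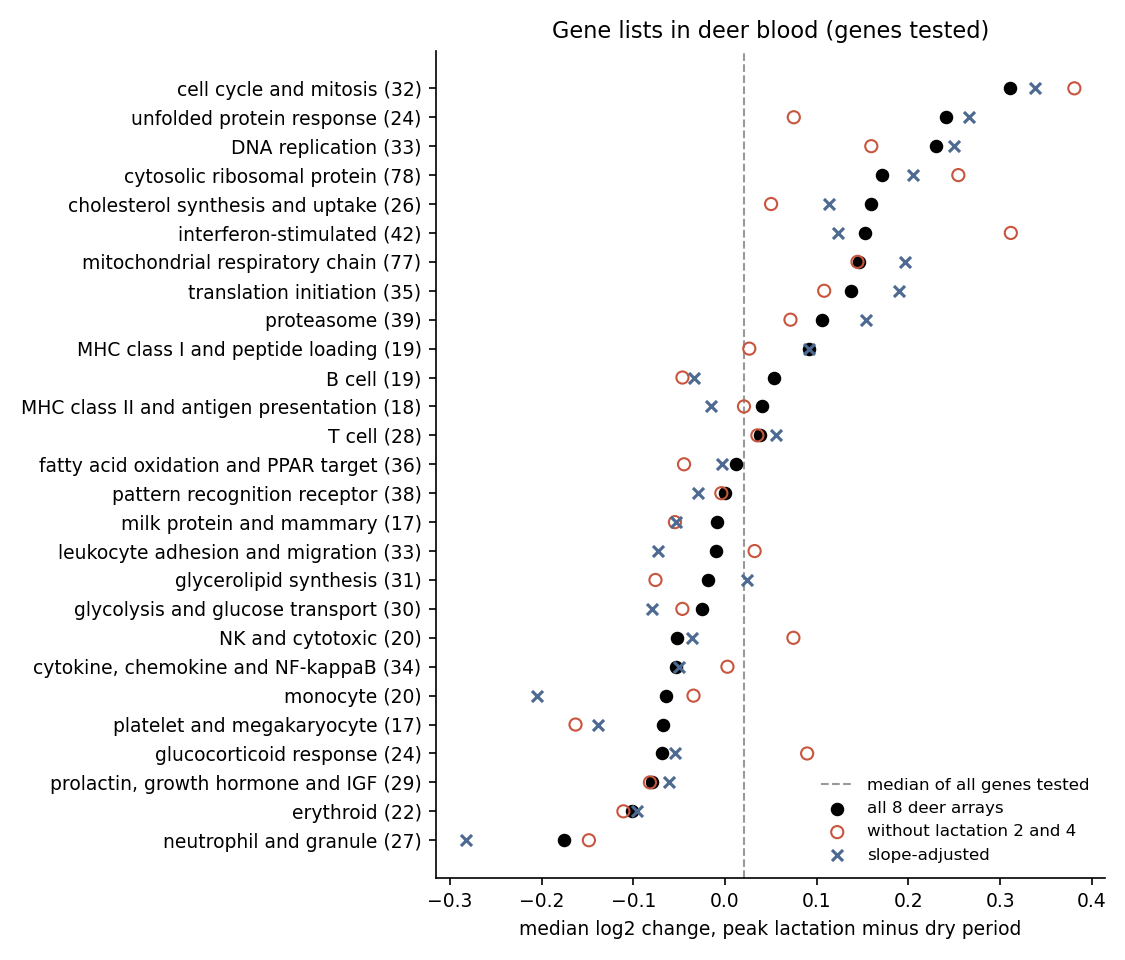
Median log2 change from dry to lactation (horizontal axis) of gene lists in deer, with the same median without the lactation arrays of animals 2 and 4 and after the slope adjustment, and a dashed line at the median of all genes. The cell cycle list stands farthest to the right at 0.31 and the neutrophil list farthest to the left at -0.18.

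All 49 lists together held 0 called genes at an adjusted p of 0.05, and the 22 lists not described here had medians between -0.07 and 0.12.

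The direction of many small differences followed the level of the probe. Of 3404 probes with a mean log2 ratio below -1, 88.3% were higher in lactation, and of 1174 probes above 1, 72.2% were lower. Without the lactation arrays of animals 2 and 4 these shares were 41.8% and 31.1%. Scaling all arrays to one spread turned the shares to 5.23% and 8.18%, which is an opposite dependence on level. Dividing each array by its slope on the dry mean gave 58.1% and 43.3%. Under this last treatment the median of the cell cycle list was 0.34, with 20 genes higher at an unadjusted p under 0.05, where 6.23% of all genes were, and both called probes kept their calls.

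**Figure D4:**
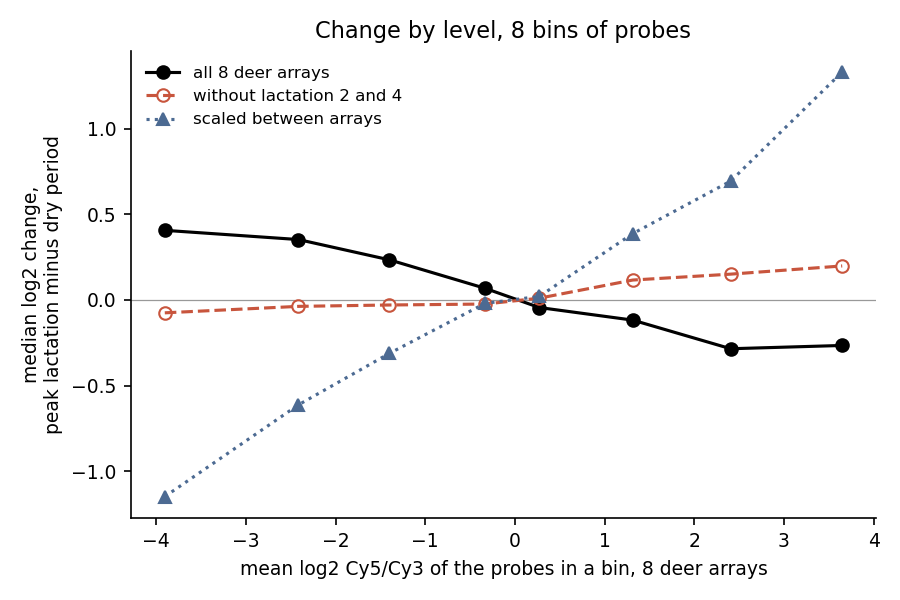
Median log2 change from dry to lactation (vertical axis) of probes binned by their mean log2 ratio over the deer arrays (horizontal axis), with all arrays, without the lactation arrays of animals 2 and 4, and after scaling. Probes below -3 change by 0.41 with all arrays, by -0.07 without the pair and by -1.15 after scaling.

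Few probes were detected in only 1 state. Well above background on 4 of 4 arrays were 31866 probes in dry deer and 30242 in lactating deer, with 30047 in both. Of 43653 probes, 65 were so on all dry arrays and no lactation array, and 2 the other way. Every dry array had more probes above background (33599 to 34695) than every lactation array (31678 to 33575). The largest Cy5 difference was 1.70-fold among the dry-only probes and 1.16-fold among the lactation-only ones. The dry-only probes include those of REEP1 and IL17RE, and the lactation-only probes are those of H2BC5 and ARSD. REEP1 was 1.27-fold higher in dry arrays by the state means of Cy5 alone. Its lactation signal was no lower than the lowest signal that counts as above background, so this ratio is no lower bound. Its log2 ratio changed by -0.36 (adjusted p 0.613). For IL17RE the log2 ratio changed by 0.24 (adjusted p 0.736), against the direction of its detection, so no fold is given.

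The change in deer was set against the mean change of both cattle breeds for the same probe. No probe differed at an adjusted p of 0.05 by limma, the lowest being 0.138, while 2707 probes (8.11%) differed at an unadjusted p under 0.05. For TPX2 the change was 0.55 in deer, -0.03 in Holstein-Friesian and 0.03 in Polish Red cattle, a difference of 0.55 ± 0.12 (SE; adjusted p 0.422). KNSTRN, MCM4 and CDCA3 differed by 0.68, 0.63 and 0.77 (adjusted p 0.508 to 0.534). The cell cycle list had medians of -0.01 in Holstein-Friesian and 0.06 in Polish Red cattle. CPT1A changed by -0.80 in deer, -0.09 in Holstein-Friesian and 1.30 in Polish Red cattle, and the difference of -1.41 ± 0.29 (SE) had an adjusted p of 0.422. S100A9 changed by -1.01 in deer, 1.40 in Holstein-Friesian and 0.60 in Polish Red cattle (difference -2.01, adjusted p 0.508), and STEAP4 by -0.78, 1.17 and 0.50 (difference -1.62, adjusted p 0.422). Over the 2 tested probes of each gene, the median change in deer was -0.49 for CPT1A and -0.51 for S100A9. HBB changed by -3.02, 0.88 and -0.55 (difference -3.19 ± 1.20, SE; adjusted p 0.585). The called probe A_73_P075736 changed by -0.33 and -0.04 in the breeds, and its difference of -3.22 had an adjusted p of 0.153. None of these differences passed.

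**Figure D5:**
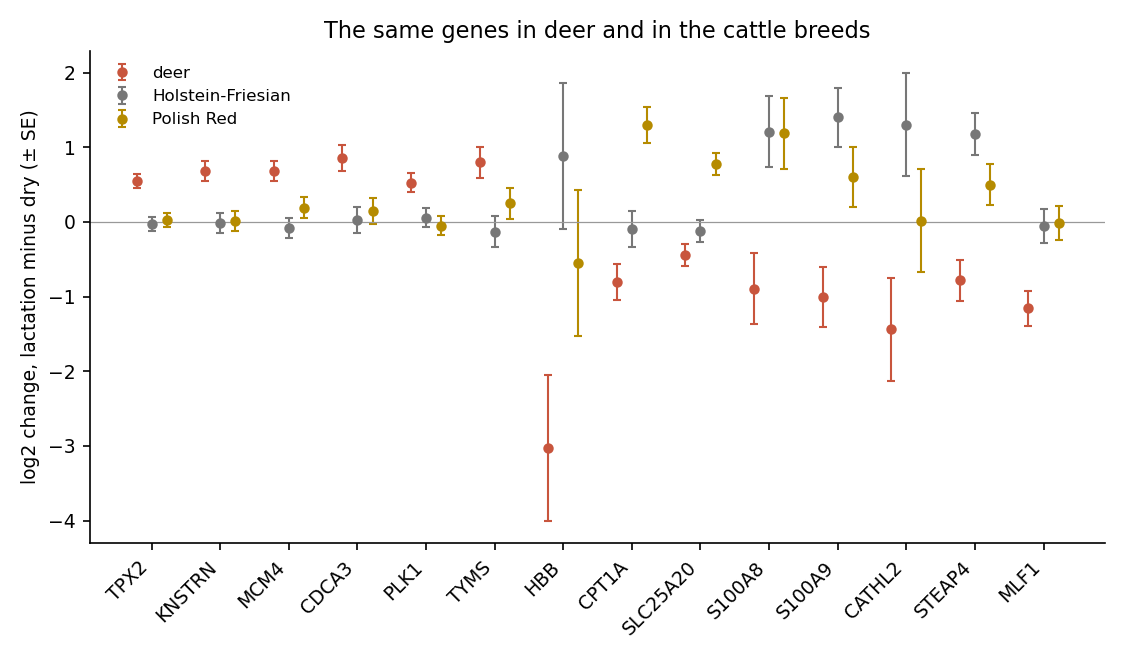
Log2 change from dry to lactation, with standard error, of named genes in deer, Holstein-Friesian and Polish Red cattle (n = 4 animals each). TPX2 is at 0.55 in deer and near 0 in both breeds, and CPT1A is below 0 in deer and at 1.30 in Polish Red cattle.

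The authors' deposited table of deer transcripts holds 576 probes, 301 higher and 275 lower in lactation by their values. Of the 374 that were tested here, 346 (92.5%) changed in the same direction, 243 (65.0%) passed an unadjusted p of 0.05 and 2 an adjusted one, by limma. The table was made from the same arrays, so this is no independent evidence. In the authors' deposited table the cell cycle and mitosis list had 16 genes, all 18 of their probes being higher. The chromatin modifier list had 5 genes, HDAC4, KDM4A, KDM5A, KDM5C and TET2, all lower. The authors' deposited table gives TPX2 a difference of 0.64 at the probe used here, and A_73_P075736 a difference of -2.84. The value of A_73_P075736 is the same as its change with Agilent's processed log ratio here (-2.84). The same holds for A_73_107213 (-0.85 in both) and AURKA (0.83 in both). In 6 of the 8 deer columns of the authors' deposited table the values correlated best with the array of the same label. The lactation column of animal 2 correlated at 0.311 with its own array and at 0.811 with that of animal 3, and that of animal 4 at 0.656 and 0.825. With deviations from the mean over the 8 deer arrays, at tested probes only, the column of animal 4 correlated best with its own array (0.589). That of animal 2 then correlated at 0.284 with its own array and at 0.562 with the lactation array of animal 1. The arrays stood here as background-corrected, loess-normalized ratios, so these correlations can also reflect a difference in processing. Whether a label, an array of these animals or the processing accounts for the low correlations was not tested.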

How the data were processed

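The study measured RNA of blood from deer and cattle on 2-colour Agilent arrays, and the 8 deer arrays of 24 were compared here between states. The deposited files are the scanner output of each array: per the file headers they hold the mean intensity of each spot, its local background and Agilent's log10 ratio. They were made with Agilent Feature Extraction, given as version 10.7.3.1 per the submitters' processing notes and as 10.10.1.1 per the file headers. The authors also deposited log2 values of their own list of deer transcripts, made per the labels with one-way ANOVA and Tukey's test in GeneSpring. Their centring was not given in the sources used here. Here intensities were background-corrected (normexp, offset 50) and loess-normalized within arrays with limma 3.58.1 in R 4.3.3, leaving out 1417 control spots. No spot of the deer arrays was saturated. Probes well above background in Cy5 on at least 3 arrays of a deer group were tested by limma's moderated test, fitted on all 24 arrays with 6 groups, with Benjamini-Hochberg adjustment over all tested probes. Differences between states and between deer and cattle were contrasts of this fit, and fold changes are of ratios after the offset, which understates dim probes. The number of arrays, not a count, limits the precision. Each gene was represented by its brightest tested probe. Names came from the files and RefSeq symbols (ARS-UCD2.0, names only), 34314 of 43653 probes being named, and coordinates are those of the files (UMD 3.1).

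The design text states that each animal was bled at both times, and equal subject numbers were taken as the same animal. Deviations from the group means correlated at 0.357, 0.249, 0.286 and 0.183 for equal numbers, each higher than with any other number. The main fit used group means only and left this pairing out, and fits with the animal as a block are among the alternatives. Named genes were those past the threshold in 4 of 4 animals, filled to 8 in each direction by lowest p, up to 4 of lowest p in each gene list, and those detected in 1 state only. The rule asked for probes that translate into the RefSeq protein. Protein sequences were not used here, and the sequences of called, globin and exon-junction probes are shown instead, a choice made after seeing the values. Members, gene lists and markers were chosen with earlier results of these data known. The fit was tested on simulated data. Alternatives covered the filter, background, normalization, slide, position, pairing, variance prior, array weights, test and each replicate.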

Additional observations from a re-analysis of the deposited data

Results flagged for a closer look

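Of 98 groups of 4 deer arrays screened for a single array far from the other 3, 4 had one, where chance gives about 1 in 20. The gap to the nearest array was a share of 0.902 of the whole range for the mean of the ribosomal protein list, where the lactation array of animal 1 stood apart. It was 0.867 for the translation initiation list in the dry array of animal 4 and 0.876 in the lactation array of animal 2. For the T cell list it was 0.860, in the lactation array of animal 1.

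A further screen covered 67 named genes and called probes. In some of them all 4 deer moved one way between states and all 4 cattle of a breed the other way. For these the difference from that single breed was not tested. Part of the 67 had been named because all 4 deer moved alike. The share over all genes was not counted, so the cases below are a description. Against Holstein-Friesian cattle, the deer change minus the breed's change was -0.72 for ACSL5, -1.17 for A_73_107213, -2.74 for CATHL2, -1.42 for MOGAT1, -0.78 for ORC5 and -2.41 for S100A9. A_73_107213, which fell in deer, was higher by 0.40 in Holstein-Friesian cattle. Against Polish Red cattle it was -1.05 for ATP5F1E, -2.10 for CPT1A, -0.84 for ORC5, 0.58 for PLK1 and -1.22 for SLC25A20. CPT1A and SLC25A20, which act in sequence in the carnitine shuttle, were higher in Polish Red lactation by 1.30 and 0.77 and lower in deer. The difference from the mean of both breeds was tested by limma, and adjusted p for these genes was between 0.138 and 0.594. Another probe of ORC5 changed by 0.28 in deer, the direction of both breeds. For MOGAT1 the smallest step of a deer was -0.03, and the deer change was -0.13 without the lactation arrays of animals 2 and 4. For ATP5F1E, 1 of 3 tested probes was higher in deer. The deer medians over all tested probes were -0.49 for CPT1A, -0.51 for S100A9 and -0.59 for CATHL2.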

How the results depend on the processing

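The count of 2 called probes changed with most choices. It was 0 with the 8 deer arrays only, with scaling between arrays, with the slide as a fixed factor, without the lactation arrays of animals 2 and 4 together, and with ANOVA and Tukey p both adjusted. It was 1 without the filter on dim probes, with median centring, with Cy5 alone, with position as a factor or with eBayes trend and robust settings, and 366 with ANOVA and Tukey at unadjusted p. Array weights gave 10151, with a weight of 19.7 on the lactation array of animal 4 and of 0.137 to 2.43 on the others. With the animal as a random replicate block 2 probes were called, with adjusted p of 0.00198 and 0.0327, and with a fixed replicate block in the deer arrays 0. Leaving out each deer array in turn gave 0 to 58 calls, and leaving out the Polish Red dry array of replicate 1 gave 3, of which 1 was higher. Scaling turned ACSL5 to 0.012, BHLHE41 to -0.58, CLEC7A to 0.75, CPT2 to -0.51, ECHS1 to -0.75, ELP5 to -0.11, IFI44L to -0.43, IFIT5 to -0.032, PDK1 to -0.12, PECAM1 to 0.39, PLK1 to -0.026, PTH1R to 0.40, RPS2 to -0.30, STING1 to -0.23 and USP18 to -0.35. CNR1 turned to 0.15 with Agilent's processed ratio, CPT2 to -0.13 without animals 2 and 4, and CCL2 and DDIT4 to 0.42 and -0.46 within the slide of both states. HBE4 turned to -0.56 with scaling and to -0.16 without animals 2 and 4. List medians that moved by more than the spread between arrays were, with scaling, cholesterol -0.029, interferon -0.058, prolactin and IGF -0.014 and adhesion -0.077. With the slide as a fixed factor they were unfolded protein response 0.042, translation initiation 0.035, proteasome 0.00010, MHC class I -0.049, MHC class II -0.10, milk 0.10, glucocorticoid -0.38 and cytokine 0.043. With Cy5 alone the medians were cell cycle 0.43 and adhesion 0.050, over all probes of a gene cell cycle 0.24, and without animals 2 and 4 cell cycle 0.38 and unfolded protein response 0.075. With the slope adjustment, chosen after seeing the data, they were monocyte -0.21 and adhesion -0.073. Leaving out 1 array, the ranges were 0.28 to 0.37 for cell cycle, -0.019 to 0.078 for fatty acid oxidation, -0.053 to 0.067 for milk and -0.053 to 0.061 for adhesion. The causes of these moves were not tested, beyond what each alternative's construction shows. The comparison of deer with cattle could not be fitted in the 8 deer arrays only or by ANOVA. With 4 animals a state and probes of another species, a gene without a call is not shown to be equal in both states.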
